A study of Oryza sativa with 6 samples.

Results

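The comparison described here is P15-48 against P15-0, the late feeding response of the BPH15 introgression line of rice to the brown planthopper (BPH, Nilaparvata lugens). Its members were the known rice miRNAs, taken as every entry of the deposited table whose ID starts with osa-, and entries that share one mature sequence were counted once. The table held 1898 entries over the 6 libraries of the series, 464 of them known rice entries, which came to 337 different mature sequences. Of these, 303 had at least 1 read in P15-0 or P15-48 and 34 had none in either. Of the 303, 28 had reads in P15-0 only, never more than 8, and 9 had reads in P15-48 only, never more than 3.

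The study sequenced small RNAs of P15 and of PC before feeding and after 6 h and 48 h of feeding, with 1 library of pooled plants for each line and time. P15 is resistant to BPH and carries the BPH15 locus in the background of the indica variety 9311, and PC is that variety, the susceptible recipient. P15-0 plants were not infested, P15-6 and P15-48 plants carried young BPH nymphs for 6 h and 48 h, and infestations were started at different times and ended together, so that plants were harvested at one time. The labels give leaf sheath of plants 3 weeks old at the four-leaf stage, whereas the study's methods describe stems of younger seedlings. P15 is a single introgression line, so BPH15 and any other donor segment it carries cannot be told apart. With 1 library a condition there was no replicate of P15-0 or P15-48, and each test of this pair compares those libraries and not the conditions.

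A plant miRNA is cut from a hairpin transcript by DCL1 as a short duplex. One strand, the guide, is loaded into AGO1 and directs cleavage of mRNAs that pair with it almost throughout, and the other strand, the star, is usually degraded. BPH sucks phloem sap, and many conserved plant miRNAs target transcription factors or genes of nutrient and redox balance.

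Expression is given as reads and as TPM, the reads of an entry scaled to a common library total. The totals behind TPM were 1426058 reads for P15-0 and 1078716 for P15-48, the shallowest of the 6 libraries, whose totals reached 1644065. A count of 0 allowed up to 3 reads, which is 2.10 TPM in P15-0 and 2.78 TPM in P15-48. A sequence was called when its fold change was at least 2 in either direction (1 on the log2 scale) and its unadjusted P was under 0.05 in edgeR's exact test with a dispersion of 0, which allows for counting error only. Intervals are exact 95% counting intervals and likewise cover counting error only.

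The mature sequences of the called miRNAs that reached 20 reads in either library are shown here because several of them shared a seed. The called miR399i, which stayed under 20 reads, and close relatives that were not called are shown with them. Each is written 5′ to 3′ in the DNA letters of the deposited table, with bases 2 to 8, the seed, in capitals. The called star strands of miR156 share the seed CTCACTT, and the guide of the same family is given after them.
miR156g-3p: gCTCACTTctctctctgtcagc
miR156f-3p: gCTCACTTctctttctgtcagc
miR156d: tGACAGAAgagagtgagcac

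Among the star strands of miR166, 5 were found with the seed GAATGTT. The first pair here was called and the other 3 were not.
miR166c-5p: gGAATGTTgtctggtccgag
miR166d-5p: gGAATGTTgtctggctcgagg
miR166a-5p: gGAATGTTgtctggttcaagg
miR166b-5p: gGAATGTTgtctggctcgggg
miR166h-5p: gGAATGTTggctggctcgagg

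The called guide miR396c-5p differs from miR396a-5p at 1 base and shares its seed TCCACAG, while the more abundant miR396e-5p carries another seed.
miR396c-5p: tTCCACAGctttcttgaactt
miR396a-5p: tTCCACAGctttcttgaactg
miR396e-5p: tCCACAGGctttcttgaactg

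The miR399 guides share the seed GCCAAAG, and the called miR399i is shown with the most abundant member.
miR399i: tGCCAAAGgagagctgccctg
miR399d: tGCCAAAGgagagttgccctg

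The called copper-linked sequences and the other called sequences with at least 20 reads have no seed in common.
miR398b: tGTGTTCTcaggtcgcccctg
miR528-5p: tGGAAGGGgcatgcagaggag
miR408-5p: cAGGGATGaggcagagcatgg
miR160f-3p: gCATTGAGggagtcatgcagg
miR169r-3p: tGGCAAGTctcctcggctacc
miR1431: tTTGCGAGttggcccgcttgc
miR6249a: cGTGAAGAgctcgccggcggc
miR1870-5p: tGCTGAATtagacctagtgggcat

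A further pair of guides is given because their response differed between the lines.
miR827: tTAGATGAccatcagcaaaca
miR1432-5p: aTCAGGAGagatgacaccgac

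Between P15-0 and P15-48, most known miRNAs stayed close to their starting level, and the larger changes were in sequences of low or middle abundance. Of the 303 sequences tested, 19 were called (6.27%), 9 higher (2.97%) and 10 lower (3.3%) in P15-48. Those called lower included the star strands miR156g-3p, miR156f-3p, miR160f-3p, miR169r-3p and miR408-5p and the guide miR396c-5p. Those called higher included the star strands miR166c-5p and miR166d-5p and the guides miR398b and miR528-5p. Among the 149 sequences that reached 20 reads in one library of the pair, 13 were called (8.72%). With a Benjamini-Hochberg adjusted p under 0.05 in edgeR's exact test in place of the unadjusted P, 11 were called (3.63%), 3 of them higher. A further 52 sequences had an adjusted p under 0.05 with less than a 2-fold change, and 74 reached a 2-fold change without a P under 0.05, none of them with more than 26 reads. Among the 168 sequences with a mean of at least 10 reads over the 6 libraries, a limit chosen after seeing the data, 150 were within 2-fold and 103 within 1.5-fold of their P15-0 level, and the median log2 fold change was -0.05. Of those 168, 14 were called (8.33%).

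**Figure D1:**
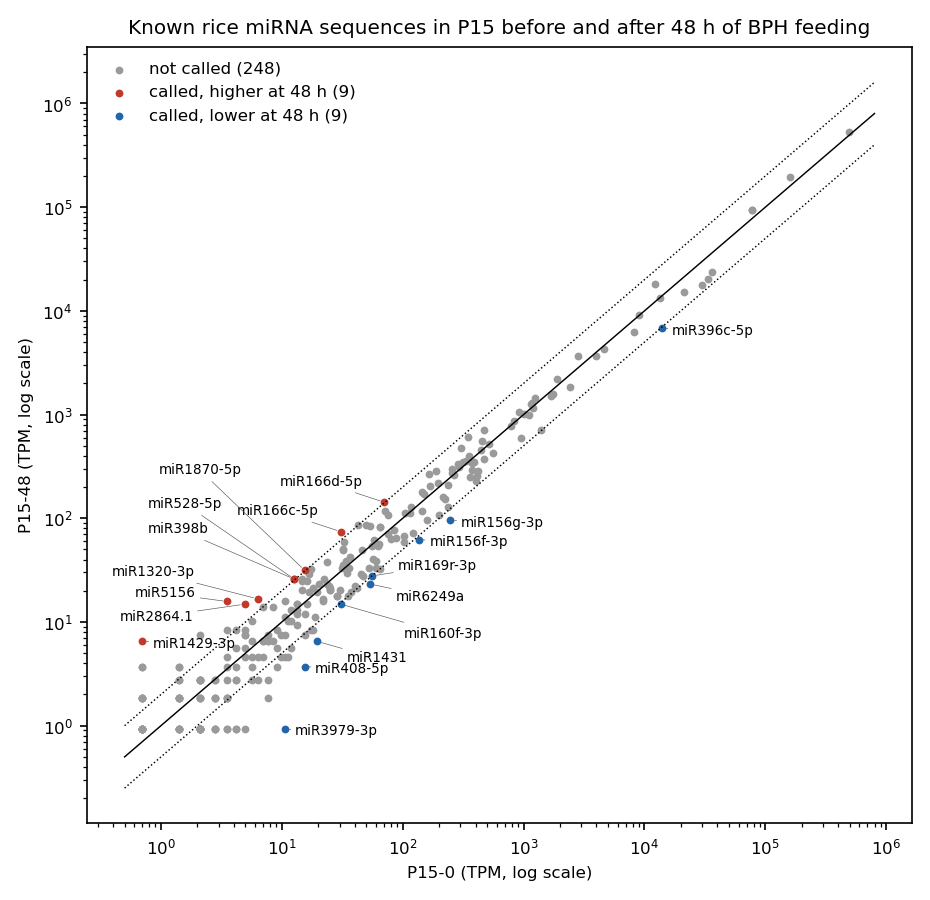
Level of each known rice miRNA sequence in P15-0 (x axis) and P15-48 (y axis), both in TPM on log scales, for the sequences with a read in both libraries; the solid line marks equal levels and the dotted lines 2-fold differences. The 9 called higher lie at low TPM, while miR396c-5p lies alone among the abundant sequences called lower; miR399i, the other called sequence, had 0 reads in P15-48 and is not drawn.

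These calls depended on how much libraries of one condition are taken to vary and on the scaling. With an assumed coefficient of variation between libraries of 0.2, 11 sequences were called, and with 0.4 only miR399i and miR3979-3p remained. With all clean reads in place of the totals behind TPM, 43 were called, 1 higher and 42 lower, and all log2 values shifted by -0.38. TMM scaling shifted them by 0.07 and median-of-ratios scaling by 0.11, with 17 called in each case, so the sign of a log2 value that lies within these shifts of 0 depended on the scaling.

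The most abundant sequences differed little. miR166a-3p, the shared guide of 6 hairpins and a regulator of HD-ZIP III transcription factors, gave 706492 reads in P15-0, 928870 in P15-6 and 573885 in P15-48, so it stood at 1.07 times its starting TPM, a sign that flips with clean reads. Entries with its sequence were not all given the same reads, and through the entry miR166c-3p the log2 fold change was -0.01 in place of 0.10. Its relative miR166g-3p stood at 1.22 times (1.21 to 1.23), but its sequence read through the entry miR166h-3p had a log2 fold change of -0.03, and clean reads turn the sign as well. miR166i-3p stood at 0.985 times (0.964 to 1.01), an interval that includes 1. The guide miR166l-3p went the other way, from 42556 to 19224 reads, or 0.597 times. None of these 4 reached a 2-fold change with the totals behind TPM, but miR166l-3p was called lower with clean reads.

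Among the other abundant sequences, miR168a-5p, which targets AGO1, gave 51686 and 25588 reads in P15-0 and P15-48 and stood at 0.654 times its starting TPM. Its star miR168a-3p gave 30089 and 16298 reads and stood at 0.716 times, with 21099, 9057 and 15109 TPM in P15-0, P15-6 and P15-48. miR162a, which targets DCL1, stood at 0.928 times (0.893 to 0.964). The other miR162 guide, miR162b, stood at 1.07 times (0.932 to 1.23), and miR162a turned to just above its starting level with median-of-ratios scaling. Of the group that acts on the miRNA machinery, 0 of 4 sequences were called, against 6.27% of all 303 tested. miR396e-5p and miR396f-5p, which were given nearly the same reads, both stood at 1.22 times. miR1425-5p, a rice guide directed at PPR genes, stood at 1.49 times (1.46 to 1.52), from 17272 and 19456 reads, and its star miR1425-3p at 0.768 times (0.404 to 1.42).

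Of the called sequences, miR396c-5p was by far the most abundant. miR396 guides act on growth-regulating factors (GRFs), transcription factors of cell proliferation. It gave 19813 reads in P15-0, 25856 in P15-6 and 7322 in P15-48, which is 13894, 15727 and 6788 TPM. The level at 6 h was thus above that at 0 h, and only the 48 h library was low. It fell by 1.03 on the log2 scale to 0.489 times its P15-0 level (0.476 to 0.502), just past the 2-fold limit, and it was not called after TMM or median-of-ratios scaling. miR396a-5p, which differs from it at 1 base, gave 676 and 406 reads, or 0.794 times (0.700 to 0.899). Reads of such near-identical guides may be divided between them or counted for both. Of the 9 sequences of the miR396 group tested, 1 was called (11.1%), against 6.27% of all 303 tested. The group's 8 members with a mean of at least 10 reads had a median log2 fold change of -0.19, against -0.05 over all 168.

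Star strands of miR156 fell, 2 of the 4 tested. miR156 guides repress SPL transcription factors, which time the change from juvenile to adult growth. miR156g-3p, a sequence shared with miR156c-3p, gave 353 reads in P15-0, 106 in P15-6 and 103 in P15-48. Both infested libraries were well below the uninfested one, and 48 h was not below 6 h in TPM (248, 64.5 and 95.5 TPM). The fall from 0 h to 48 h was to 0.386 times (0.307 to 0.482, Benjamini-Hochberg adjusted p = 1.95e-18, edgeR's exact test). miR156f-3p, shared with miR156h-3p and miR156l-3p, followed the same course with 136, 38.3 and 62.1 TPM and fell to 0.457 times (0.341 to 0.606, adjusted p = 8.95e-08, edgeR's exact test). These star strands share their seed and differ at 1 base, and their reads could have been divided between them or counted for both.

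The guide of that family was lower by less. miR156d, the sequence of 10 entries, gave 33712, 25553 and 20484 TPM in order of time, so its level stood lower at each later time. At 48 h it was 0.608 times the P15-0 level (0.598 to 0.617) and was not called, though it was with clean reads. All 5 miR156 sequences with a mean of at least 10 reads were below their P15-0 level, with a median log2 fold change of -0.84. In the wider SPL group, which adds miR529 and miR535, 2 of 11 tested were called (18.2%), both lower, against 6.27% of all 303 tested. In that group 7 of 9 with a mean of at least 10 reads stood below their starting level, with a median of -0.52. The exceptions were miR529b, at 1.73 times (1.26 to 2.39), and the star miR535-3p. miR535-5p stood at 0.747 times (0.617 to 0.904), and the star miR156j-3p at 0.891 times (0.779 to 1.02).

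miR172, whose guides repress AP2-type factors and which usually runs against miR156 with plant age, gave no call among its 3 sequences. Over all 303 tested the share called was 6.27%. The guide miR172d-3p had 92 and 89 reads at 0 h and 48 h (1.28 times, 0.945 to 1.73), while the star miR172d-5p began at the same count and ended at 35 reads (0.503 times, 0.331 to 0.750), just short of the fold limit. That star was called lower with clean reads. miR172b gave 1 read in each library.

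Of the 10 star strands of miR166, 2 were called higher and none lower. miR166c-5p gave 44 reads in P15-0, 54 in P15-6 and 80 in P15-48 and rose to 2.40 times its P15-0 level (1.64 to 3.56, Benjamini-Hochberg adjusted p = 2.64e-05, edgeR's exact test). miR166d-5p gave 100 reads in P15-0, 140 in P15-6 and 154 in P15-48 and rose to 2.04 times (1.57 to 2.65, adjusted p = 3.59e-07, edgeR's exact test). In both, 6 h lay closer to 0 h than to 48 h in TPM, at 30.9, 32.8 and 74.2 TPM for miR166c-5p and 70.1, 85.2 and 143 TPM for miR166d-5p. The star strands with the same seed that were not called stood at 1.50 times for miR166a-5p (1.27 to 1.77), 1.43 times for miR166b-5p (1.09 to 1.88) and 1.07 times for miR166h-5p (0.832 to 1.36). miR166k-5p, with another seed, gave 321 and 165 reads and stood lower, at 0.680 times (0.560 to 0.822). Both calls were lost when clean reads replaced the library totals, on which scale they stood above their starting level by less than 2-fold. Over the HD-ZIP III group, 2 of 16 were called (12.5%), both higher, against 6.27% of all 303 tested. In that group 11 of 16 stood above their starting level with a median log2 fold change of 0.14, which turns negative with clean reads.

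The copper-linked families gave calls in both directions. miR397, miR398, miR408 and miR528 act on copper proteins such as laccases, Cu/Zn superoxide dismutases and plantacyanins, or, for miR528, an ascorbate oxidase. miR398b had 18 reads in P15-0, 25 in P15-6 and 28 in P15-48, and miR528-5p 18 reads in P15-0, 11 in P15-6 and 28 in P15-48. Both rose on small counts, to 2.06 times with an interval of 1.10 to 3.95 for each, neither was called with clean reads, and neither passed adjustment (Benjamini-Hochberg adjusted p = 0.0773, edgeR's exact test). The star miR408-5p fell, with 22 reads in P15-0, 12 in P15-6 and 4 in P15-48, to 0.240 times (0.0602 to 0.708, adjusted p = 0.0215, edgeR's exact test). Its guide miR408-3p gave 81 and 44 reads (0.718 times, 0.486 to 1.05), and the star miR528-3p 48 and 42 reads (1.16 times, 0.746 to 1.79). miR398a, miR397a and miR397b had at most 8 reads in either library. Of 8 copper-linked sequences tested, 3 were called (37.5%), against 6.27% of all 303 tested, and the 3 rest on few reads.

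Of the phosphate and sulfate families, 1 sequence was called with the totals behind TPM. It was 1 of 6 phosphate sequences (16.7%), against 6.27% of all 303 tested. With clean reads miR399a, miR399d, miR399j and miR395g were called lower as well. miR399 guides act on PHO2, a brake on phosphate uptake. miR399i gave 8 reads in P15-0, 2 in P15-6 and 0 in P15-48, so its level in P15-48 was at least 2.02-fold lower, and it was the only one of 5 miR399 sequences called. On so few reads that call was lost with an adjusted p (0.0696, edgeR's exact test) and with a limit of 20 reads. The abundant miR399d gave 2001 reads in P15-0, 1357 in P15-6 and 766 in P15-48, with a lower TPM at each later time (1403, 825 and 710.1 TPM), and at 0.506 times (0.465 to 0.550) it missed the fold limit narrowly with an adjusted p of 3.12e-63 in edgeR's exact test. miR399j stood at 0.620 times (0.536 to 0.717) and miR399a at 0.507 times (0.299 to 0.832). The 3 miR399 sequences with a mean of at least 10 reads had a median log2 fold change of -0.98. miR827, directed in rice at SPX-domain phosphate transporters, stood at 1.10 times (1.02 to 1.18), on the other side of 1, though below 1 with clean reads. In miR395, which targets ATP sulfurylases, miR395g stands for 16 entries and gave 50 reads in P15-0, 33 in P15-6 and 19 in P15-48 (0.502 times, 0.280 to 0.867), not called, though it was with the least-read of those entries. The other 3 miR395 sequences had at most 3 reads.

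Families directed at other transcription factors held 2 more called star strands. miR169r-3p, from a family that targets NF-YA subunits, gave 80 reads in P15-0, 32 in P15-6 and 30 in P15-48 and fell to 0.496 times (0.314 to 0.763, Benjamini-Hochberg adjusted p = 0.00548, edgeR's exact test). It was already low at 6 h. Of the 11 NF-YA sequences tested, it was the 1 called (9.09%), against 6.27% of all 303. Of the 9 miR169 sequences counted as guides, 8 were below their starting level, against 92 of 168 over all. None of the 9 was called, though miR169e was with clean reads. Several of them differ from another at 1 base, so their reads may be shared. The 9 include miR169f.2 and miR169i-5p.2, which lack the seed AGCCAAG that miR169h, miR169c and miR169e carry. miR169h stood at 0.780 times (0.676 to 0.898), miR169c at 0.701 times (0.603 to 0.814) and miR169e at 0.570 times (0.418 to 0.772). The direction of miR169c turned with the entry, since the least-read entry of that sequence gave a log2 fold change of 0.27 in place of -0.51, and the NF-YA median of -0.35 became -0.14. miR160f-3p, from a family that targets auxin response factors, gave 44 reads in P15-0, 17 in P15-6 and 16 in P15-48 and fell to 0.481 times (0.253 to 0.869), with an adjusted p of 0.0565 in edgeR's exact test. Neither star strand was called after TMM or median-of-ratios scaling, where both lay just inside the 2-fold limit.

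miR160f-3p was the 1 call among 19 tested sequences of the auxin group (5.26%, against 6.27% of all 303), which also holds miR167, miR390 and miR393. miR167f, a guide to auxin response factors carried by 7 entries, stood at 0.771 times (0.749 to 0.795). miR393b-5p and miR393a, guides to TIR1-type auxin receptors, stood at 0.897 times (0.843 to 0.954) and 0.890 times (0.835 to 0.948). miR390-5p, the trigger of TAS3 phased small RNAs, gave 1367 and 637 reads and stood at 0.616 times (0.560 to 0.677).

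The remaining conserved families gave no call, 0 of 8 for miR159 and miR319, 0 of 3 for miR164, 0 of 9 for miR171, 0 of 7 for miR444 and 0 of 2 for miR1425. Over all 303 tested the share called was 6.27%, at which groups this small can hold no call. With clean reads the stars miR171c-5p, miR171d-5p and miR171e-5p were called lower. For miR159a.1, a guide to GAMYB factors, the ratio was 1.01 (0.984 to 1.04), for miR319b, a guide to TCP factors, 0.991 (0.906 to 1.09), and for miR159f 0.753 (0.670 to 0.846), so the 2 larger members were level to within counting error. miR164b, a guide to NAC factors, gave 498 reads in P15-0, 425 in P15-6 and 650 in P15-48 and stood at 1.73 times (1.53 to 1.94), among the larger differences above 1 that were not called. miR164d stood at 0.845 times (0.478 to 1.46), and miR164e had at most 4 reads. The miR171 guide miR171f-3p, which targets GRAS-domain factors, stood at 1.60 times (1.40 to 1.82) while its stars miR171e-5p and miR171d-5p stood at 0.603 times (0.473 to 0.764) and 0.646 times (0.435 to 0.944). For miR444, the monocot family that targets MADS-box genes, miR444b.2, miR444b.1 and miR444a-3p.2 stood at 0.907, 0.763 and 1.02 times.

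**Figure D2:**
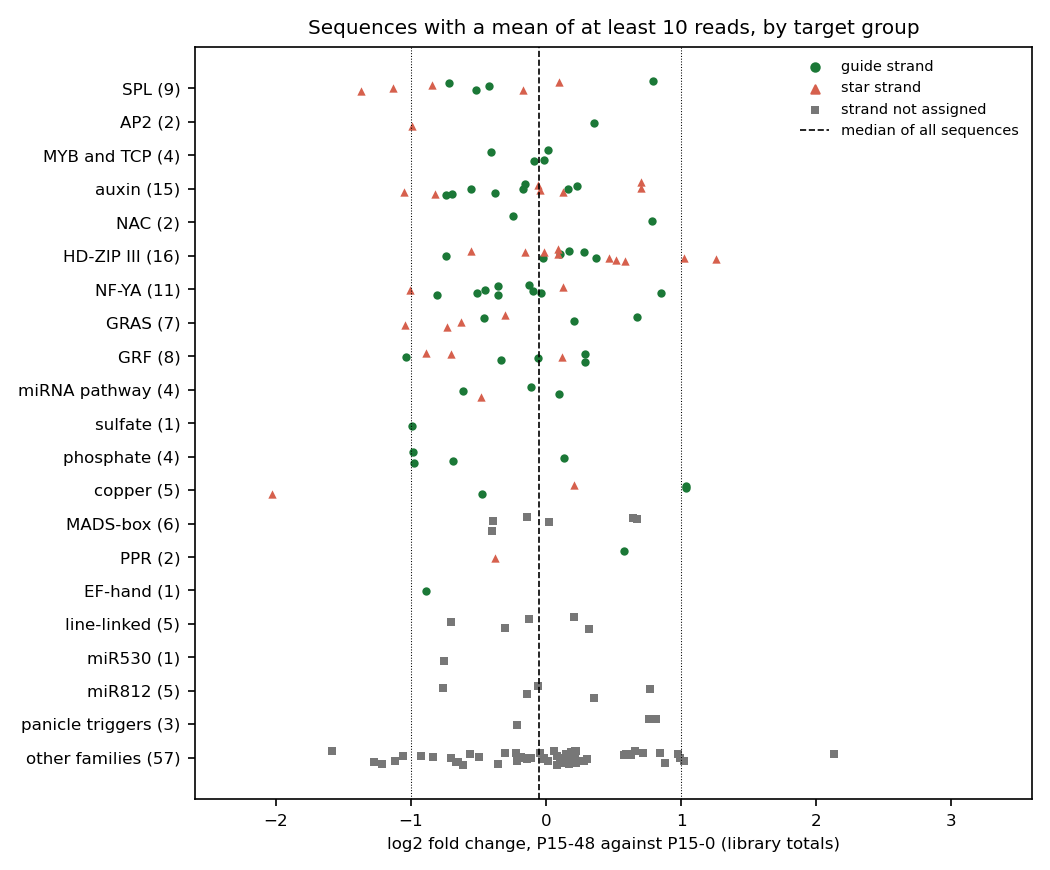
Log2 fold change of P15-48 against P15-0 (x axis) for the sequences with a mean of at least 10 reads, one point each, by target group with the number drawn in parentheses; circles are guide strands, triangles star strands and squares sequences whose strand was not assigned. The dashed line is the median of all, -0.05, and the dotted lines mark 2-fold; SPL and NF-YA points lie mostly left of the median and HD-ZIP III points mostly right of it.

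Among less conserved rice families, none of the 2 tested sequences each of miR1432, miR530 and miR531 was called, against 6.27% of all 303 tested. With clean reads miR1432-5p and miR530-5p were called lower. miR1432-5p, directed at an EF-hand calcium-binding protein, gave 336 reads in P15-0, 162 in P15-6 and 137 in P15-48 and stood at 0.539 times (0.439 to 0.659) without reaching the fold limit, and miR1432-3p had at most 4 reads. miR530-5p gave 67 reads in P15-0, 6 in P15-6 and 30 in P15-48, so it was lowest at 6 h and at 48 h stood at 0.592 times (0.371 to 0.923). miR530-3p gave 9 and 3 reads. Among 11 tested sequences of miR812 none was called, against 6.27% of all 303. miR812k stood at 1.28 times (0.945 to 1.73), miR812n-5p at 1.71 times (0.970 to 3.04) and miR812t at 0.588 times (0.271 to 1.20), the last called lower with clean reads.

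miR1861 and miR1862, which hold members that differ between the lines, gave 0 calls of 8 tested within P15, against 6.27% of all 303. With clean reads miR1861e was called lower. miR1862a gave 533 reads in P15-0, 932 in P15-6 and 369 in P15-48, against 26, 11 and 26 reads in PC-0, PC-6 and PC-48, and its 48 h to 0 h ratio in P15 was 0.915 (0.799 to 1.05). miR1862d stood at 1.15 times (1.08 to 1.23) and miR1862e at 1.24 times (1.02 to 1.52). miR531a gave 23 reads in P15-0, 14 in P15-6 and 16 in P15-48 and 0, 0 and 1 reads in PC-0, PC-6 and PC-48, and miR531b gave 16 and 11 reads in P15-0 and P15-48. These levels differed between the 3 P15 and the 3 PC libraries. The lists were chosen with earlier results of these data known, so this is no check of the line labels. No known miRNA defines the leaf sheath, so the labelled tissue had no direct check. miR2118 and miR2275, known as triggers of phased small RNAs in panicles, summed to 104 TPM in P15-0 and 111 TPM in P15-48. Of these, 0 of 7 were called, against 6.27% of all 303, and miR2118o, the most abundant, gave 89 and 58 reads. miR2118b and miR2118e stood at 1.76 times (0.966 to 3.27) and 1.70 times (0.926 to 3.16).

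Of the called sequences, 8 belong to less conserved families with no strand assigned. Lower were miR1431, with 28 reads in P15-0, 7 in P15-6 and 7 in P15-48 (0.330 times, 0.122 to 0.774, adjusted p = 0.0442 in edgeR's exact test), and miR6249a, shared with miR6249b, with 77 reads in P15-0, 44 in P15-6 and 25 in P15-48 (0.429 times, 0.262 to 0.682, adjusted p = 0.00115 in edgeR's exact test). Both were already lower at 6 h. miR1870-5p was higher, with 22 reads in P15-0, 24 in P15-6 and 34 in P15-48 (2.04 times, 1.16 to 3.67), and its adjusted p of 0.0718 in edgeR's exact test did not pass. The last 5 stayed under 20 reads in both libraries. miR3979-3p gave 15 reads in P15-0, 12 in P15-6 and 1 in P15-48, a ratio of 0.0881 with an interval of 0.00209 to 0.573. miR5156 gave 5 reads in P15-0, 10 in P15-6 and 17 in P15-48, a ratio of 4.49 (1.59 to 15.6), and was the only one of the 6 called sequences under 20 reads to be higher with an adjusted p under 0.05 (0.0146 in edgeR's exact test). miR1320-3p, miR2864.1 and miR1429-3p gave 9 and 18 reads, 7 and 16 reads and 1 and 7 reads in P15-0 and P15-48, with ratios of 2.64 (1.13 to 6.68), 3.02 (1.18 to 8.69) and 9.25 (1.19 to 417).

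Star strands held more of the calls than guides did. Of 43 star strands tested, 7 were called (16.3%), and of 72 guides 4 (5.56%), against 6.27% of all 303 tested. This is a description with no test of the difference. The summed level of all star strands was 0.761 times that in P15-0, while that of guides was 1.06 times, both set largely by their most abundant member. Such sums may count a read more than once. By length, 24-nt sequences gave 2 calls of 73 (2.74%), both higher, against 6.27% of all 303 tested. The 21-nt sequences gave 6 higher and 7 lower of 163 (7.98% called), close to the share over all. Where the mean reached 10 reads, the log2 median was 0.15 for the 41 24-nt and -0.10 for the 98 21-nt sequences. Over all 168 it was -0.05. The 24-nt median turns negative with clean reads and the 21-nt median positive with median-of-ratios scaling. Sequences that begin with C were below their P15-0 level in 15 of 18 cases (median -0.39), against 92 of 168 over all. Those that begin with G were below it in 15 of 25 and those with T in 43 of 83. Those that begin with A were above it in 23 of 42 (median 0.08), against 76 of 168 over all. That median lies within the shift of -0.38 with clean reads.

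Both arms of a hairpin could be compared where each reached 20 reads, which held for 41 of 69 hairpins. The arms moved to the same side in 24 of the 41, and the median absolute difference between them was 0.51 on the log2 scale. In 9 hairpins the arms were at least 1 apart. In miR408 both arms were lower, the 5p star at -2.03 and the 3p guide at -0.48. In miR171c, miR171d and miR171e the 5p star stood lower (log2 -1.05, -0.63 and -0.73) and the guide they share, read almost identically in each entry, higher (0.67 in each). miR172d had a lower 5p star (-0.99) and a guide at 0.35. In miR167d and miR167h, whose 5p guide is shared, the guide stood at -0.37 and -0.38 (the same sequence in separate entries) and the 3p star at 0.71 in both. miR166c-5p stood at 1.26 against -0.01 for the guide of that entry, and miR812n had a 5p arm at 0.77 and a 3p arm at -0.71. The pairs that share a guide are not separate cases, and the 3 miR171 and the 2 miR167 hairpins each rest on 1 guide.

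**Figure D3:**
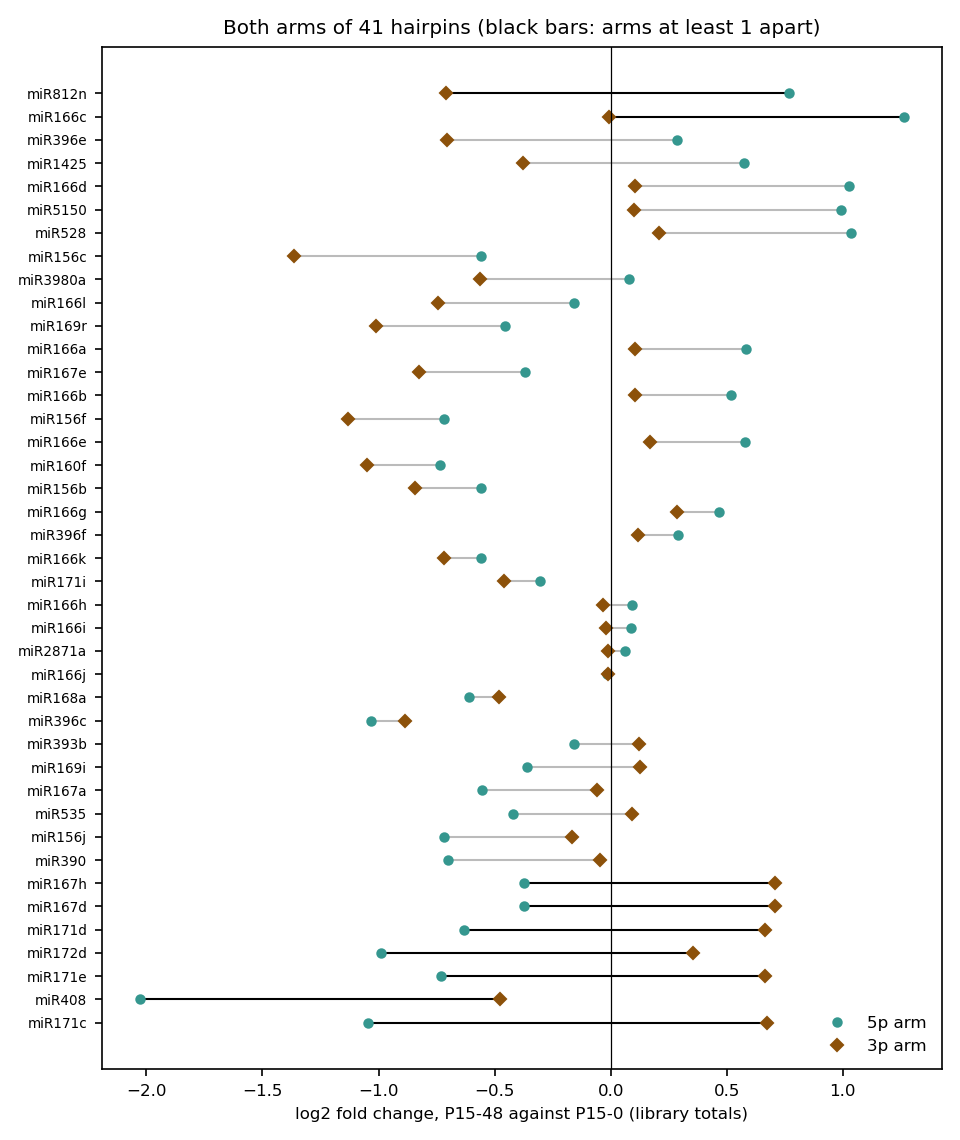
Log2 fold change of P15-48 against P15-0 (x axis) for the 5p arm (circles) and 3p arm (diamonds) of the 41 hairpins with at least 20 reads in both arms, sorted by the difference; black bars join arms at least 1 apart. The 9 black bars include the 3 miR171 and 2 miR167 hairpins, each set sharing 1 guide, and 8 of the 9 cross 0.

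The susceptible recipient gave a comparison from separate libraries, PC-48 against PC-0. Of the 10 sequences called lower in P15, 7 had a PC-48/PC-0 ratio under 1, and of the 9 called higher, 8 had a ratio over 1. Among all sequences with a mean of at least 10 reads, the same held for 67 of the 92 that stood lower and 44 of the 76 that stood higher in P15. miR166c-5p was at a like ratio in both lines, 2.40 in P15 and 2.18 (1.54 to 3.10) in PC. miR398b and miR528-5p had larger ratios in PC, 5.59 (3.35 to 9.82) and 4.76 (2.45 to 10.1), and the differences between lines did not pass (adjusted p = 0.0750 and 0.238, edgeR's likelihood ratio test).

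**Figure D4:**
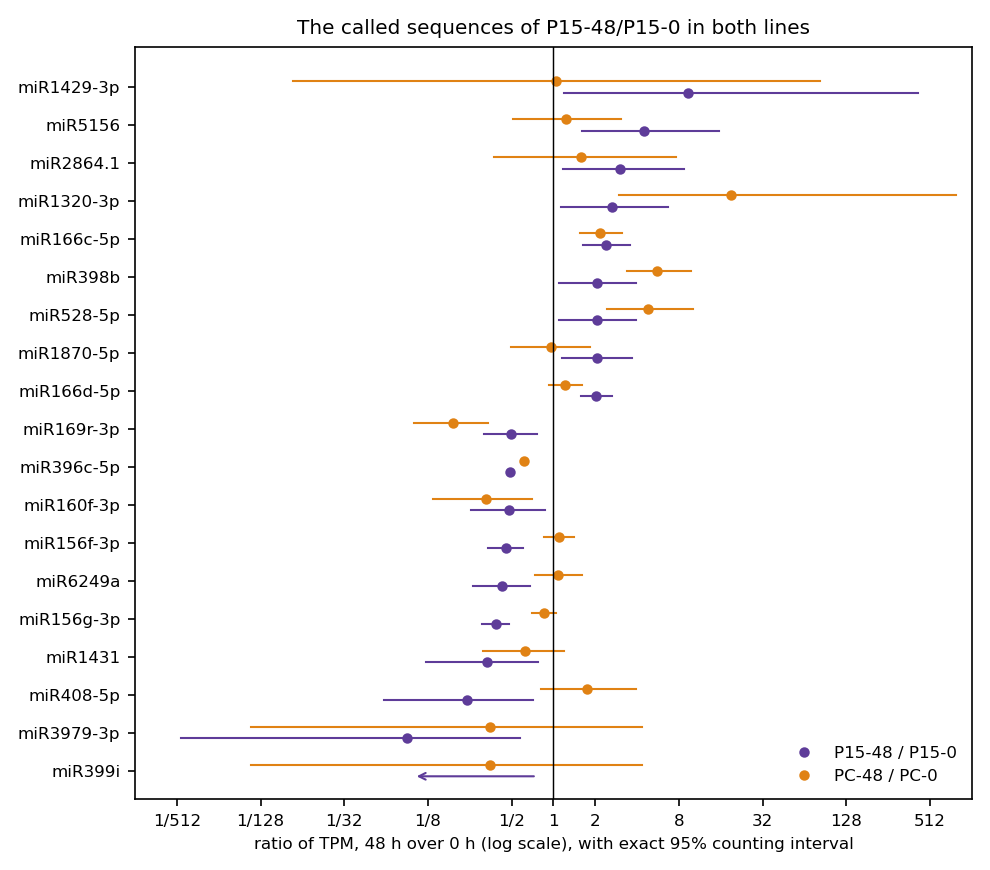
Ratio of TPM at 48 h over 0 h (x axis, log scale) for the 19 called sequences in P15 (purple) and PC (orange); points are single-library ratios and bars exact 95% counting intervals. The arrow for miR399i starts at the upper end of its interval because P15-48 had 0 reads; both miR156 star strands lie well below 1 in P15 and near 1 in PC.

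Whether P15 and PC responded unequally was tested directly, as P15-48/P15-0 minus PC-48/PC-0 on the log2 scale, again for counting error only. Of 324 sequences with a read in the 4 libraries, 12 differed by at least 1 on the log2 scale with an adjusted p under 0.05 (3.7%), 7 with P15 above PC and 5 below. Of the 12, 5 were among the 19 called in P15. The miR156 stars that fell in P15 had ratios near 1 in PC, where miR156g-3p gave 244, 125 and 199 reads in PC-0, PC-6 and PC-48 (0.854 times, 0.705 to 1.03) and miR156f-3p stood at 1.10 times (0.854 to 1.41). Their differences were -1.15 (SE 0.21, adjusted p = 6.6e-07) and -1.26 (SE 0.27, adjusted p = 3.02e-05) by edgeR's likelihood ratio test. miR408-5p, with 12, 8 and 20 reads in PC-0, PC-6 and PC-48, and miR6249a had PC ratios of 1.75 (0.813 to 3.92) and 1.08 (0.738 to 1.59), whose intervals include 1. Their differences were -2.83 (SE 0.94) and -1.33 (SE 0.43). miR169r-3p fell further in PC, to 0.190 times (0.0995 to 0.339), a difference of 1.37 (SE 0.52, adjusted p = 0.0461, edgeR's likelihood ratio test).

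The other 7 were not called in P15. miR827 gave 1147, 688 and 1259 TPM in the P15 series and 1351, 1175 and 689.6 TPM in the PC series, each in order of time. It was thus lowest at 6 h in P15 and at 48 h in PC, and the responses at 48 h differed by 1.10 (SE 0.08, adjusted p = 7.52e-43, edgeR's likelihood ratio test). miR1432-5p had 105 and 151 TPM in PC-0 and PC-48, 1.44 times, where P15 had 0.539 times, a difference of -1.42 (SE 0.22). The star strands miR167a-3p, miR171e-5p and miR171i-5p stood at 0.958, 0.603 and 0.808 times in P15 and at 0.384, 0.299 and 0.209 times in PC. miR3980a-3p stood at 0.676 times in P15 and 0.216 in PC, and miR444d.3 at 1.59 and 0.646. With the dispersion estimated over the 6 libraries, 0.0349, none of the 12 differences passed. That estimate came from an additive fit of line and time, which counts differences between the lines' responses as spread. It therefore cannot decide whether the responses differed. With TMM scaling, 3 differences stood above and 6 below.

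**Figure D5:**
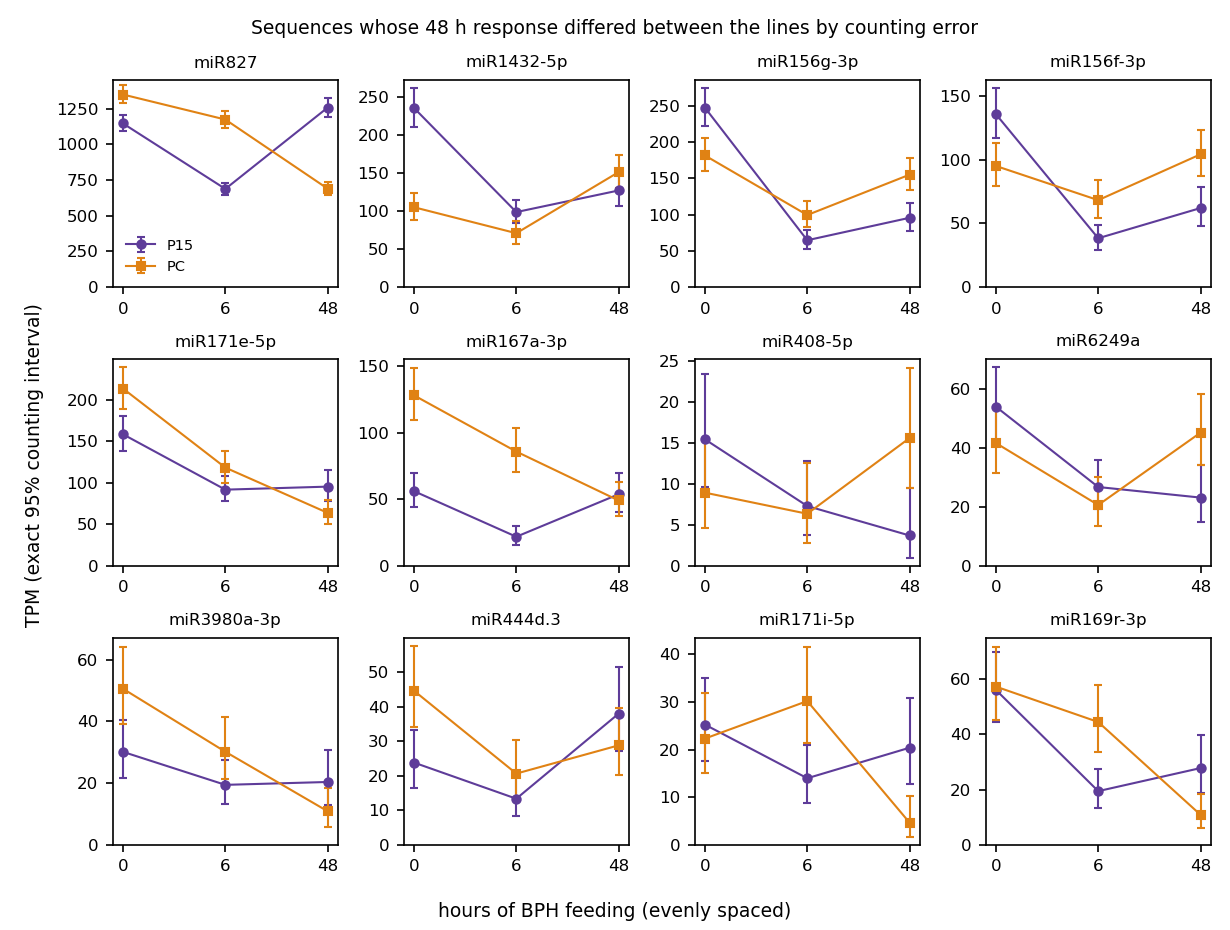
TPM (y axis, from 0) against hours of feeding (x axis, evenly spaced) in P15 (purple circles) and PC (orange squares) for the 12 sequences whose 48 h response differed between the lines by counting error; each point is 1 library and bars are exact 95% counting intervals. miR827 ends at 1259 TPM in P15 and 690 TPM in PC, while both miR156 star strands end lower in P15 than in PC.

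When the lines were taken as replicates of each other in an additive fit of line and time (edgeR's quasi-likelihood test, 6 libraries, 2 residual degrees of freedom), 0 of 181 sequences differed between 48 h and 0 h at an adjusted p under 0.05 (0%). At an unadjusted P under 0.05 there were 29 (16%), and DESeq2 called 1, miR399d. The smallest adjusted p was 0.146 in edgeR's test, and miR399d had a log2 fold change of -1.28. Of the 19 called sequences, 15 were tested in this fit and 8 of them had an unadjusted P under 0.05, but P15-0 and P15-48 are among its libraries, so this is no independent check. Without P15-6 the fit called 13, without PC-6 9 and without P15-0 5, miR171e-5p, miR398b, miR399d and miR528-5p in all 3 cases.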

How the data were processed

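Small RNAs of 6 pooled libraries (P15 and PC at 0, 6 and 48 h) were analysed. The authors deposited, per entry and library, read counts and TPM, a signal normalised to a library total, with 0 reads written as 0.01. Reads had been matched to miRBase release 21 after removal of other RNA classes. The 337 known rice sequences summed to 1473469 reads in P15-0 and 1176155 in P15-48. Both sums exceed the totals behind TPM, 1426058 and 1078716, so some reads may have been counted for more than 1 sequence. The aligner is not given in the sources used here. TPM matched count over total to within 1.23e-04%.

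For 62 sequences with several entries the entry with most reads was taken; in 14 entry totals differed by over 10%. Tests used edgeR 4.0.16 (prior count 0.125, dispersion 0, library totals) in R 4.3.3, after the study's thresholds, and DESeq2 1.42.0 as an alternative; scripts were tested on simulated data. Named sequences were those called with at least 20 reads, the 10 most abundant, the 3 most abundant per list, those called between lines or over both lines, and arms at least 1 apart. Guide and star arms (names without an arm counted as guides) and target lists came from textbook knowledge. Members and lists were chosen with earlier results of these data known. Alternatives were scaling, dispersion, count limits, entry choice and left-out libraries.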

Additional observations from a re-analysis of the deposited data

Results flagged for a closer look

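The 48 h response differed between the lines for 12 sequences (log2, P15 minus PC, edgeR's likelihood ratio test with counting error only). P15 was above PC for miR827 (1.10), miR171e-5p (1.01), miR167a-3p (1.32), miR3980a-3p (1.64), miR444d.3 (1.30), miR171i-5p (1.93) and miR169r-3p (1.37). It was below PC for miR1432-5p (-1.42), miR156g-3p (-1.15), miR156f-3p (-1.26), miR408-5p (-2.83) and miR6249a (-1.33).

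Outside the known rice miRNAs, 2.83% of 1024 tested entries were called by the same rule with an unadjusted P, and 1.95% were called higher in P15-48. Of the entries called higher, which the comparisons above did not use, 12 had at least 20 reads in P15-48. Their reads in P15-48 were 40 for m0450-3p, 93 for MIR9774-y, 61 for MIR1425-x, 55 for m0212-3p and 32 for m0249-3p, against 12, 60, 37, 32 and 16 in P15-0. There were 21 each for m0328-3p and MIR1878-y, 42 for m0264-3p, 35 for m0327-3p, 34 for m0084-5p, 29 for MIR2871-y and 26 for MIR394-x, against 7, 7, 26, 21, 21, 18 and 15 in P15-0. Of the 12, only m0450-3p, MIR9774-y, MIR1425-x and m0212-3p had a Benjamini-Hochberg adjusted p under 0.05 in edgeR's exact test.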

How the results depend on the processing

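Against 19 called sequences, an adjusted p gave 11, clean reads 43, a coefficient of variation of 0.2 gave 11 and of 0.4 gave 2, the common dispersion 12, and counting every entry 29. The 9 higher became 3 by adjusted p, 5 with at least 20 reads, 1 with clean reads, 3 at 0.2, 0 at 0.4 and 3 with the common dispersion. The 10 lower became 42 with clean reads, 2 at 0.4 and 20 over every entry. TMM and median-of-ratios each called 17, sharing 16 with the 19, without miR160f-3p, miR169r-3p and miR396c-5p and with miR5150-5p added. Clean reads kept 11 of the 19. A mean of at least 10 reads, chosen after seeing the data, left 14.

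Of 12 differences between the lines, 0 remained with the common dispersion, an estimate that counts such differences as spread. The 7 above became 3 with TMM and 1 with clean reads, and the 5 below became 11 with clean reads; both became 0 with the common dispersion. The 0 sequences of the fit over both lines became 1 with DESeq2 (miR399d) and 6 over every entry, and ranged from 0 to 13 without 1 library (13 without P15-6, 9 without PC-6, 5 without P15-0, 0 otherwise). Among 104 log2 values and list medians, TMM and median-of-ratios each left 100 with the same call or within their spread, the entry with fewest reads 103 and clean reads 74. No called value changed sign, but uncalled values and medians did, 7 with TMM, 8 with median-of-ratios, 16 with clean reads and 4 with the entry with fewest reads (miR166a-3p, miR166g-3p, miR169c and the miR812 median). No paired analysis was possible because each line and time had 1 library and the labels give no replicate numbers to pair by, beyond line as a term of the fit over both lines. Sequences under 20 reads are limited by depth.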

Other observations

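Outside the known rice miRNAs, 1024 entries had a read in P15-0 or P15-48, and 29 of them (2.83%) were called by the same rule, 20 higher and 9 lower. The lowest adjusted p was that of m0321-5p, a 23-nt predicted sequence with 66 reads in P15-0, 27 in P15-6 and 8 in P15-48, and with 40, 45 and 5 reads in the PC libraries. The 48 h library was the lowest of the 3 in each line. m0396-5p gave 29, 7 and 2 reads in P15 and 27, 7 and 9 in PC, so it was low at 6 h as well.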
